A study of Betula luminifera with 4 samples.

Results

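The genes described here build and cut the cellulose, pectin and xylan of plant cell walls in the birch Betula luminifera. They were chosen by protein name in the deposited annotation, which had to name a cellulose synthase or cellulose synthase-like protein, a COBRA protein, a pectinesterase, a polygalacturonase, a pectate lyase, a galacturonosyltransferase, or an enzyme of glucuronoxylan or xylan backbone synthesis. Their best database match also had to be a walnut (Juglans) or Arabidopsis protein. This gave 194 of the 26828 genes with such a plant match and of the 76899 genes in the whole assembly. A further 29 genes had a wall name without that match, 5 of them matched to Betula, and these were left out.

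All plants were clone G49#, a single genotype propagated in vitro. Seedlings 2 months old were potted in sand, watered with normal medium for 2 weeks and with deionized water for 2 weeks, and then given 20 mL a day of 1 of 2 media. The phosphate-free medium (LP) held no KH2PO4, its potassium being made up with K2SO4. The control medium (CK) held 1.25 mM KH2PO4. The groups were LP roots, CK roots, LP shoots and CK shoots, each 1 library, and a shoot library held stem and leaf RNA in equal amounts. How many plants a library holds, and for how many days they had their medium, is not given in the sources used here.

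No group was replicated, so the spread between plants is unknown. Each difference therefore compares 2 libraries, has no replicate check and carries no p-value. Values are TPM, a length-corrected share of a library's RNA scaled to the same total in each library. The calling rule asked for 1 TPM or more in one of the libraries compared and a log2 ratio, taken after adding 1 TPM to both values, of 1 or beyond in either direction. The words "rose" and "fell" below are kept for genes past that rule, and a log2 ratio is always of LP over CK in the same organ unless another pair is named.

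A growing plant wall is a network of cellulose microfibrils set in pectin and hemicellulose. Cellulose is spun at the plasma membrane by complexes of cellulose synthase A (CESA) proteins, with one set of isoforms in the primary wall of growing cells and another in the secondary wall of xylem and fibres. Pectin is made in the Golgi by galacturonosyltransferases, exported with methyl esters, and altered in the wall by pectinesterases, polygalacturonases and pectate lyases. Xylan, the main hemicellulose of birch wood, is built in the Golgi by xylosyltransferases named IRX after the irregular xylem of the Arabidopsis mutants.

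The 194 genes fell into 11 classes by name. Cellulose synthesis held 18 CESA, 4 cellulose synthase interactive (CSI) and 9 COBRA genes, with 39 cellulose synthase-like (CSL) genes beside them. Pectin held 25 galacturonosyltransferases, 42 pectinesterases, 29 polygalacturonases, 1 polygalacturonase inhibitor and 12 pectate lyases. Xylan held 7 genes with glucuronoxylan names and 8 beta-1,4-xylosyltransferases. The other annotation columns carried the matching enzyme or domain for nearly all genes of some classes and for fewer of others. Pectate lyase (EC 4.2.2.2) was assigned to 12 of 12 pectate lyases, pectinesterase (EC 3.1.1.11) to 40 of 42 pectinesterases, and the Glyco_transf_8 domain to 23 of 25 galacturonosyltransferases. The COBRA domain was assigned to 5 of 9 COBRA genes, with 3 of the others listed under Metalloenzyme. Polygalacturonase (EC 3.2.1.15) was assigned to 11 of 29 polygalacturonases, while 8 carried EC 3.2.1.67 and 10 no EC number. The domain listed for 2 of the 18 CESA genes was WD40. The orthology column called 15 of the 18 CESA and 25 of the 39 CSL genes 1,4-beta-D-xylan synthase (EC 2.4.2.24). It called 3 xylan genes folylpolyglutamate synthase.

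Many of the genes were fragments of transcripts. Assembled lengths ran from 203 to 7139 bp with a median of 888 bp, and 88 genes were at least 1000 bp long, 56 were 400 to 999 bp and 50 were shorter. The 194 genes shared 99 protein names, and 61 of them came from 28 assembly components that held more than 1 gene, so reads of one locus may be split between entries. All 24 genes seen in a single library were under 400 bp. Genes are therefore named with their length, and long ones are given first.

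The libraries differed in content. Genes with the plant match took 40.5% of TPM in LP roots against 52.2% in CK roots, and 59.7% in LP shoots against 63.8% in CK shoots. The median log2 ratio of plant-matched genes at 1 TPM or more in both libraries was -0.58 in roots and 0.01 in shoots. Root ratios are therefore also given after centring on that median, called centred ratios. The xylem markers (laccases, xylem cysteine proteases, fasciclin-like proteins 11 and 12 and secondary wall NAC regulators) summed to 4.89 TPM in LP roots, 140 TPM in CK roots, 299 TPM in LP shoots and 526 TPM in CK shoots. Most green tissue markers followed the organ labels. Of the 27 genes 23 were called lower and 1 higher in CK roots than in CK shoots. In LP 24 were called lower and 2 higher in roots than in shoots. The root marker list was mixed. Of its 12 genes 3 were higher and 6 lower in CK roots than in CK shoots. The aquaporin gene NIP1-1 was listed at 0 in CK roots with 43.9 TPM in CK shoots, and NIP6-1 stood at 0.49 and 22.1 TPM. The Casparian strip membrane protein 1 gene (POPTRDRAFT_763057) stood at 20.02 TPM in LP roots, 94.4 TPM in CK roots, 0.08 TPM in LP shoots and 0 in CK shoots. The nitrate transporter gene NRT2.1 stood at 33.2 TPM in LP roots, 88.8 TPM in CK roots, 0.18 TPM in LP shoots and 0 in CK shoots. The 27 green tissue genes summed to 3910, 429, 16635 and 23732 TPM in the same libraries. One chlorophyll a-b binding contig, OsI_012078, gave 3698 of the 3910 TPM in LP roots. It held 187 TPM in CK roots, 1612 TPM in LP shoots and 3234 TPM in CK shoots. In bulk RNA, fewer cells of a type and less RNA per cell cannot be told apart.

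Wall genes took a smaller share of RNA in LP than in CK in both organs. Together they summed to 1464 TPM in LP roots against 3368 TPM in CK roots, which is 0.362% and 0.646% of the TPM of all plant-matched genes. They summed to 3306 TPM in LP shoots against 4373 TPM in CK shoots, or 0.554% and 0.686%. In LP roots 137 of the 194 genes were above 0, against 114 in CK roots, and in LP shoots 176 were, against 171 in CK shoots. Listed at 0 in LP and CK roots were 57 and 80 wall genes, beside 6787 and 10910 of the 26828 plant-matched genes. In LP and CK shoots they were 18 and 23, beside 3255 and 4414. In the whole assembly 56647 genes were above 0 in LP roots and 26711 in CK roots. The counts were 50435 in LP shoots and 39046 in CK shoots.

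In roots 36 wall genes rose (18.6%), beside 26.5% of plant-matched genes, and 64 fell (33.0%), beside 26.2%. Of those that rose, 29 were listed at 0 in CK roots, as were 4395 of the 7122 plant-matched genes that rose. After centring 41 rose (21.1%, beside 31.4% of plant-matched genes) and 52 fell (26.8%, beside 19.1%). The same 31.4% and 19.1% stand beside the centred root counts of classes and lists below. In shoots 36 rose (18.6%), beside 22.1% of plant-matched genes, and 47 fell (24.2%), beside 18.9%, and centring left both counts as they were. The 88 genes of at least 1000 bp leaned further down in roots, where 8 rose (9.09%, beside 19.7% of plant-matched genes of that length) and 39 fell (44.3%, beside 32.2%). After centring 12 of them rose (13.6%, beside 28.6%) and 30 fell (34.1%, beside 20%). In shoots 7 of the 88 rose (7.95%, beside 11%) and 17 fell (19.3%, beside 10.5%).

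**Figure D1:**
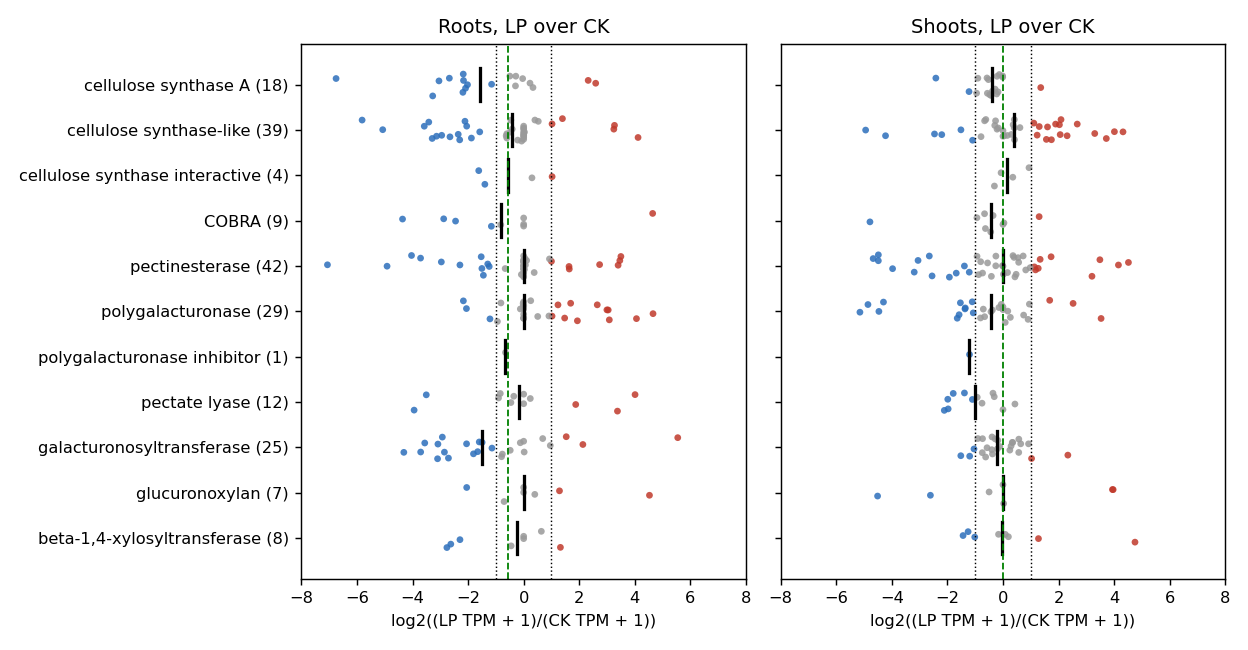
Log2 ratio of LP over CK, with 1 TPM added to both values, for every wall gene by class in roots (left) and shoots (right), with the number of genes per class in parentheses. Red points rose, blue points fell and grey points did neither; black ticks are class medians, dotted lines the calling limits at 1 and -1, and the green dashed line the median of plant-matched genes (-0.58 in roots, 0.01 in shoots). Galacturonosyltransferases lay mostly to the left in roots and pectate lyases mostly to the left in shoots.

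Cellulose synthase genes mostly had the lower value in LP roots before centring, 14 of 18 genes. The median log2 ratio was -0.72 for the primary wall isoforms, or -0.14 centred. Their 9 contigs of at least 1000 bp had a median of -0.30, or 0.29 centred. For the secondary wall isoforms the median was -2.13. The 5 secondary wall genes above 0 in both root libraries had a median of -2.17, or -1.59 centred. Of the 18 CESA genes 10 fell (55.6%, beside 26.2% of plant-matched genes) and 2 rose in roots. After centring 9 fell (50%, beside 19.1%) and 2 rose. Of the 14 CESA contigs of at least 1000 bp 8 fell (57.1%, beside 32.2% of that length) and none rose. Of the 10 genes named for primary wall isoforms 5 fell and none rose. Of the 8 named for secondary wall isoforms (CESA4, CESA7 and CESA8 in Arabidopsis) 5 fell and 2 rose. In shoots 2 of the 18 fell (11.1%, beside 18.9% of plant-matched genes) and 1 rose (5.56%, beside 22.1%). Yet all 10 primary wall genes and 7 of the 8 secondary wall genes had the lower value in LP shoots. The 18 genes summed to 566 TPM in LP shoots against 866 TPM in CK shoots. The difference between the isoform sets was not tested.

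The 5 primary wall genes that fell in roots were 3 CESA2 contigs, 1 of 3 CESA1 contigs and a short CESA9 fragment. The CESA2 contig of 3149 bp stood at 9.44 TPM in LP roots and 46.6 TPM in CK roots, and at 41.98 TPM in LP shoots and 60.8 TPM in CK shoots. Its log2 ratio was -2.19 in roots, -1.61 centred, and -0.52 in shoots, so LP roots were the low library of the 4. The CESA2 contig of 1947 bp gave 4.08 TPM in LP roots and 31.4 TPM in CK roots, with 23.0 TPM in LP shoots and 45.4 TPM in CK shoots, and a root ratio of -2.67. The CESA2 contig of 2001 bp fell before centring alone, at 10.5 TPM in LP roots against 24.7 TPM in CK roots, with 19.6 TPM in LP shoots and 25.9 TPM in CK shoots. The CESA1 contig of 1452 bp held 19.8 TPM in LP roots against 83.6 TPM in CK roots, while the shoots held 69.6 TPM in LP and 70.2 TPM in CK. CESA1 is a subunit of the primary wall complex that Arabidopsis cannot replace with a relative.

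The CESA3 genes and the other CESA1 contigs were called in neither organ, with or without centring. Their centred root ratios ran from 0.29 to 0.92. CESA3, which works beside CESA1 in that complex, had 3 contigs. The longest, of 1789 bp, stood at 64.8 TPM in LP roots, 55.2 TPM in CK roots, 53.7 TPM in LP shoots and 63.0 TPM in CK shoots. The other CESA3 contigs had root ratios of -0.28 and -0.30, which centring turned to 0.30 and 0.29. A CESA1 contig of 1182 bp was the most abundant CESA in LP roots, at 76.4 TPM, against 60.3 TPM in CK roots, with 45.9 TPM in LP shoots and 46.2 TPM in CK shoots. Contigs with the CESA1 name thus gave root ratios of 0.34, -0.04 and -2.02. The 287 bp fragment named CESA9 was the 1 primary wall entry that fell in shoots, at 29.7 TPM in LP against 163 TPM in CK, and it fell in roots as well, at 14.1 TPM in LP against 66.5 TPM in CK. It came from the same assembly component as the 3149 bp CESA2 contig and a CESA8 contig.

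Among the secondary wall isoforms, 4 of the 5 contigs of at least 1000 bp fell in roots and their LP values lay at or below 2.00 TPM. CESA7 (3308 bp) stood at 0.06 TPM in LP roots and 3.52 TPM in CK roots, and at 18.0 TPM in LP shoots and 25.5 TPM in CK shoots. CESA4 (2278 bp) stood at 0.91 TPM in LP roots and 17.5 TPM in CK roots, and at 13.3 TPM in LP shoots and 18.2 TPM in CK shoots, a root ratio of -3.27 and a shoot ratio of -0.43. CESA8 (1294 bp) stood at 2.00 TPM in LP roots and 23.8 TPM in CK roots, and at 25.9 TPM in LP shoots and 61.7 TPM in CK shoots. This CESA8 contig was the long CESA that fell in both organs, by 3.05 on the log2 scale in roots and by 1.22 in shoots. The fifth long contig, a CESA8 of 1992 bp, was low in both root libraries, at 0.82 TPM in LP and 1.57 TPM in CK, and had 28.3 TPM in LP shoots and 33.0 TPM in CK shoots.

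Short CESA8 fragments went both ways. One of 269 bp held 107 TPM in CK roots, was listed at 0 in LP roots, and held 0.45 TPM in LP shoots and 0.59 TPM in CK shoots. Fragments of 554 and 629 bp were listed at 0 in CK roots and held 4.0 and 5.03 TPM in LP roots, and these were the 2 CESA entries that rose there. The 629 bp fragment, from the same component as the 1294 bp contig, also rose in shoots, at 11.03 TPM in LP against 3.69 TPM in CK. The CESA8 entries carried 2 spellings of the protein name, and with TPM summed over a spelling the root ratios were -4.43 and -1.58. Of 21 xylem markers 9 fell (42.9%, beside 26.2% of plant-matched genes) and none rose in roots. After centring 8 fell (38.1%, beside 19.1%). Of the 21, 13 were at 0 in LP roots and 11 in CK roots. In shoots 11 xylem markers fell (52.4%, beside 18.9%) and 2 rose, while 1 of the 8 secondary wall CESA genes fell and 1 rose. The part of the xylem markers in the CESA values was not tested.

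**Figure D2:**
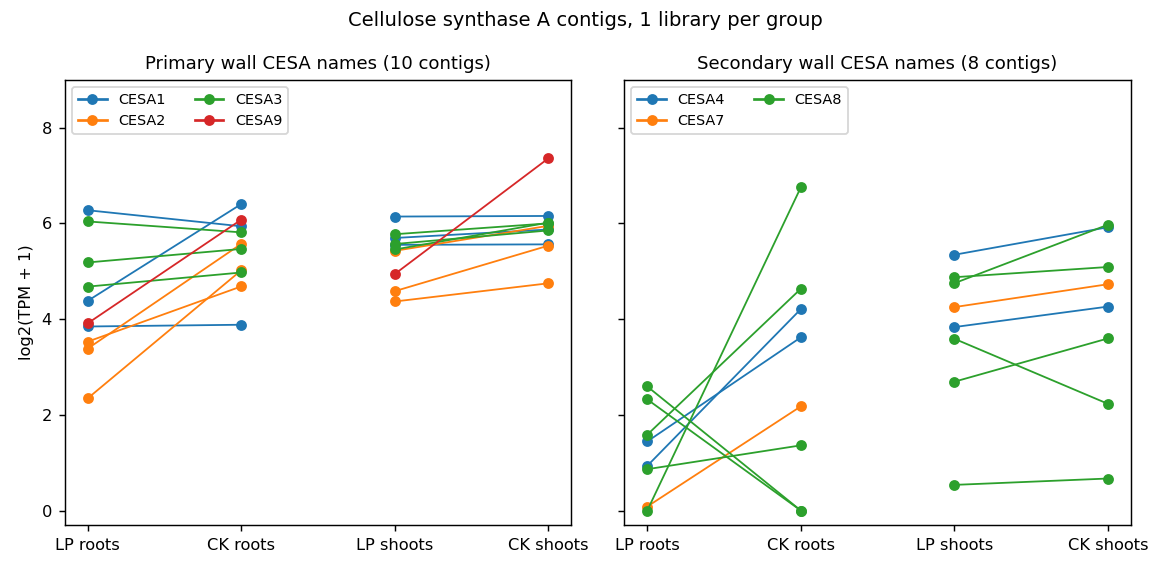
Levels of the 18 cellulose synthase A contigs as log2(TPM + 1), primary wall names on the left and secondary wall names on the right, with LP and CK of the same organ joined by a line. Each point is 1 contig in 1 library. In the right panel most lines climb steeply between LP roots and CK roots, as for CESA4 at 0.91 and 17.5 TPM, while most shoot lines are closer to level.

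COBRA proteins, which are anchored to the outer face of the plasma membrane and orient or assist cellulose deposition, had 9 genes. In roots 4 fell (44.4%, beside 26.2% of plant-matched genes) and 1 rose (11.1%, beside 26.5%), 3 and 1 after centring, and 3 were at 0 in both root libraries. In shoots 1 fell (11.1%, beside 18.9%) and 1 rose (11.1%, beside 22.1%). COBRA itself (COB, 1310 bp), needed for directional cell expansion in Arabidopsis roots, stood at 9.79 TPM in LP roots and 58.0 TPM in CK roots, with 39.5 TPM in LP shoots and 54.0 TPM in CK shoots. COBL7 (2176 bp) stood at 12.3 TPM in LP roots and 97.0 TPM in CK roots, and was level in shoots, at 37.3 TPM in LP and 36.4 TPM in CK. LP roots were the low library for both genes. COBL4, the secondary wall member of the family, had a 739 bp contig at 0.03 TPM in LP roots and 20.2 TPM in CK roots, with 15.9 TPM in LP shoots and 31.4 TPM in CK shoots. BC1L6, named COBRA-like protein 1, fell before centring alone, with a root ratio of -1.16 and -0.58 centred. The gene that rose in roots was a 225 bp fragment of BC1L4 seen in LP roots alone, at 24.0 TPM.

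CSI proteins tie the cellulose synthase complex to cortical microtubules. CSI1 (7139 bp), the longest of the 194 contigs, stood at 9.99 TPM in LP roots and 27.9 TPM in CK roots, and at 22.0 TPM in LP shoots and 23.1 TPM in CK shoots. Its root ratio of -1.40 became -0.81 on centring and was then no longer called. CSI3 (4068 bp) fell to 5.47 TPM in LP roots, against 18.9 TPM in CK roots, and held 18.2 TPM in LP shoots and 14.02 TPM in CK shoots. A CSI3 contig of 1299 bp from the same component rose in roots, at 3.88 TPM in LP against 1.40 TPM in CK. No CSI gene was called in shoots.

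Of 39 cellulose synthase-like genes 16 rose (41%, beside 22.1% of plant-matched genes) and 6 fell (15.4%, beside 18.9%) in LP shoots. In roots 5 rose (12.8%, beside 26.5%) and 14 fell (35.9%, beside 26.2%), 5 and 13 after centring. Of the 15 contigs of at least 1000 bp 4 rose (26.7%, beside 11% of that length) and 3 fell (20%, beside 10.5%) in shoots. The 15 summed to 316 TPM in LP shoots against 288 TPM in CK shoots, and the 4 bore CSLE and CSLG names. CSL proteins share the synthase domain with CESA and make other wall glycans; CSLD members act in tip growth and cell division in Arabidopsis, while the products of CSLB, CSLE and CSLG are less well known. Divided by the letter in the name, 7 of 10 CSLG and 5 of 8 CSLE genes rose in shoots, with 1 CSLG and no CSLE gene that fell. Of the others, 2 of 6 CSLB rose and 2 fell, 2 of 8 CSLH rose and 1 fell, and none of 7 CSLD rose and 2 fell. No CSLE gene had the lower value in LP shoots. The 8 CSLE genes summed to 161 TPM in LP shoots against 73.2 TPM in CK shoots, and the 10 CSLG genes to 191 TPM against 97.8 TPM.

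CSLE6 and CSLG3 had the highest shoot ratios among CSL contigs of at least 1000 bp. CSLE6 (1094 bp) stood at 30.3 TPM in LP shoots and 2.17 TPM in CK shoots, and at 0.08 TPM in LP roots and 3.67 TPM in CK roots. Its shoot ratio was 3.30, and LP shoots were the high library of the 4. CSLG3 (2355 bp) stood at 39.9 TPM in LP shoots and 8.62 TPM in CK shoots, and at 0.80 TPM in LP roots and 7.88 TPM in CK roots. It rose by 2.09 on the log2 scale in shoots and fell by 2.30 in roots, or by 1.72 centred. CSLG2 (1363 bp) rose in shoots, to 30.7 TPM in LP against 7.54 TPM in CK, and was near even in roots, at 42.7 TPM in LP and 49.8 TPM in CK. CSLG3 contigs of 928, 901 and 661 bp rose too, at 31.6, 21.2 and 18.2 TPM in LP shoots against 8.73, 2.48 and 5.33 TPM in CK shoots.

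Not every member of these subfamilies moved. The most abundant CSLE, a CSLE6 contig of 1247 bp, stood at 57.1 TPM in LP shoots and 42.8 TPM in CK shoots, a ratio of 0.41. A CSLG3 contig of 1309 bp had 15.9 TPM in LP shoots and 24.9 TPM in CK shoots, a ratio of -0.62. A 235 bp CSLG3 fragment was seen in CK shoots alone, at 29.8 TPM, and a 384 bp one in LP shoots alone, at 15.1 TPM. In roots 6 of the 8 CSLE genes fell and 2 rose, and the CSLE sum was 27.2 TPM in LP against 136 TPM in CK.

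**Figure D3:**
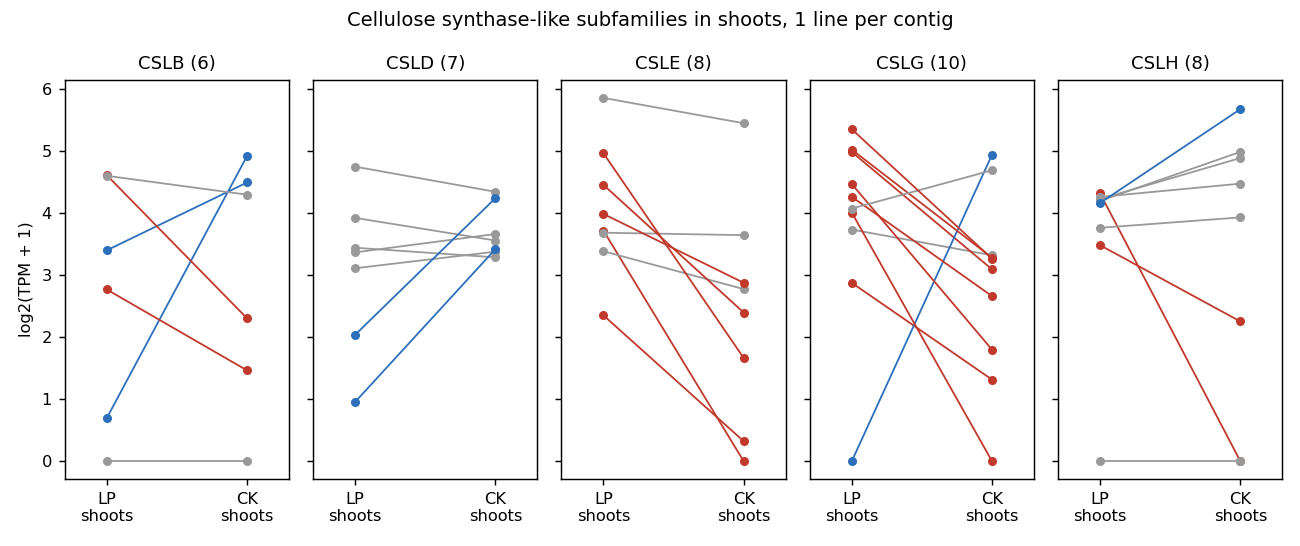
Cellulose synthase-like contigs in shoots by subfamily letter, as log2(TPM + 1), with LP shoots left of CK shoots and 1 line per contig. Red lines rose, blue lines fell and grey lines did neither; 7 of 10 CSLG lines and 5 of 8 CSLE lines are red, and no CSLD line is.

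CSLD genes behaved otherwise. CSLD2, which with CSLD3 supports root hair growth in Arabidopsis, had a 999 bp contig at 22.5 TPM in LP roots and 147 TPM in CK roots, with 9.88 TPM in LP shoots and 8.77 TPM in CK shoots. CK roots were the high library by a wide margin and the root ratio was -2.65. The full CSLD2 contig of 4062 bp had 37.0 TPM in LP roots and 57.8 TPM in CK roots, a ratio of -0.63 and -0.05 centred. CSLD5, active in dividing cells in Arabidopsis, fell in shoots in 2 contigs of 1 component. The contig of 1197 bp stood at 3.11 TPM in LP shoots and 17.9 TPM in CK shoots, and that of 1318 bp at 0.94 and 9.71 TPM. A 357 bp CSLD5 entry, at 9.33 TPM in LP shoots and 11.7 TPM in CK shoots, was not called. Of the dividing cell list, 5 cyclin B genes, 3 fell (60%, beside 18.9% of plant-matched genes) and none rose in shoots. They summed to 70.0 TPM in LP shoots against 124 TPM in CK shoots. The most abundant, CYCB1-2, was level in shoots, at 60.2 TPM in LP and 61.9 TPM in CK. No listed gene was at 0 in either shoot library, and the part of dividing cells was not tested.

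Galacturonosyltransferase genes of the GATL group fell in LP roots almost throughout. GATL and GAUT proteins are related glycosyltransferases; GAUT1 builds the homogalacturonan backbone of pectin, whereas GATL1 (PARVUS) and GAUT12 (IRX8) act in secondary wall xylan synthesis in Arabidopsis. Of 9 GATL genes 8 fell in roots (88.9%, beside 26.2% of plant-matched genes) and 1 rose, with or without centring. The median GATL ratio was -3.09. Of 16 GAUT genes 6 fell (37.5%, beside 26.2%) and 2 rose (12.5%, beside 26.5%), with a median of -0.63. After centring 4 fell (25%, beside 19.1%) and 4 rose (25%, beside 31.4%). GATL genes summed to 54.7 TPM in LP roots against 297 TPM in CK roots, and GAUT genes to 214 TPM against 438 TPM. In shoots 2 of 9 GATL genes fell (22.2%, beside 18.9%) and none rose. Of the 16 GAUT genes 1 fell there (6.25%) and 2 rose (12.5%, beside 22.1%).

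GATL9 (1735 bp) was the most abundant GATL, at 36.01 TPM in LP roots and 116 TPM in CK roots, with 38.5 TPM in LP shoots and 51.3 TPM in CK shoots. GATL10 (1254 bp) stood at 4.52 TPM in LP roots and 64.1 TPM in CK roots, and at 8.86 TPM in LP shoots and 10.99 TPM in CK shoots. For both genes CK roots were the high library. GATL7 (1194 bp) stood at 1.59 TPM in LP roots and 32.8 TPM in CK roots, and at 27.8 TPM in LP shoots and 52.9 TPM in CK shoots, a root ratio of -3.71. GATL1 (1284 bp) stood at 2.97 TPM in LP roots and 32.7 TPM in CK roots, and at 44.1 TPM in LP shoots and 29.4 TPM in CK shoots. LP roots were the low library for GATL7 and GATL1. The shorter GATL1 and GATL3 contigs fell in roots too, with ratios between -4.31 and -2.85. The exception was GATL5 (596 bp), which rose in roots, at 8.14 TPM in LP against 2.16 TPM in CK, and fell in shoots, at 10.7 TPM against 25.8 TPM.

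Among GAUT names, GAUT12 (1761 bp) stood at 14.7 TPM in LP roots and 102 TPM in CK roots, and at 24.1 TPM in LP shoots and 36.4 TPM in CK shoots. It fell by 2.71 on the log2 scale in roots and by 2.13 after centring. GAUT1 (2805 bp) went the other way in roots, at 43.7 TPM in LP and 26.8 TPM in CK, with 19.9 TPM in LP shoots and 34.1 TPM in CK shoots. Its root ratio of 0.69 missed the limit and its centred ratio of 1.27 passed it. GAUT7, which holds GAUT1 in the Golgi in Arabidopsis, fell in roots, at 1.5 TPM in LP against 6.57 TPM in CK, and had 15.7 TPM in LP shoots and 26.8 TPM in CK shoots. The pair of proteins that work together thus had root ratios of 0.69 and -1.60.

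GAUT4, a homogalacturonan synthase in switchgrass and poplar, was split over 3 contigs that disagreed. Its 627 bp contig was the most abundant of all galacturonosyltransferases, at 49.7 TPM in LP roots, 210 TPM in CK roots, 134 TPM in LP shoots and 153 TPM in CK shoots. Its 773 bp contig held 45.7 TPM in LP roots, was listed at 0 in CK roots, and held 4.72 TPM in LP shoots and 10.8 TPM in CK shoots. The 2052 bp contig, of the same component as the 773 bp one, stood at 11.99 TPM in LP roots, 21.1 TPM in CK roots, 38.5 TPM in LP shoots and 44.4 TPM in CK shoots. Summed over the 3 contigs, the root ratio was -1.10. In shoots GAUT3 (2301 bp) rose, at 17.3 TPM in LP against 7.99 TPM in CK, and a 264 bp GAUT12 fragment was the other GAUT that rose.

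**Figure D4:**
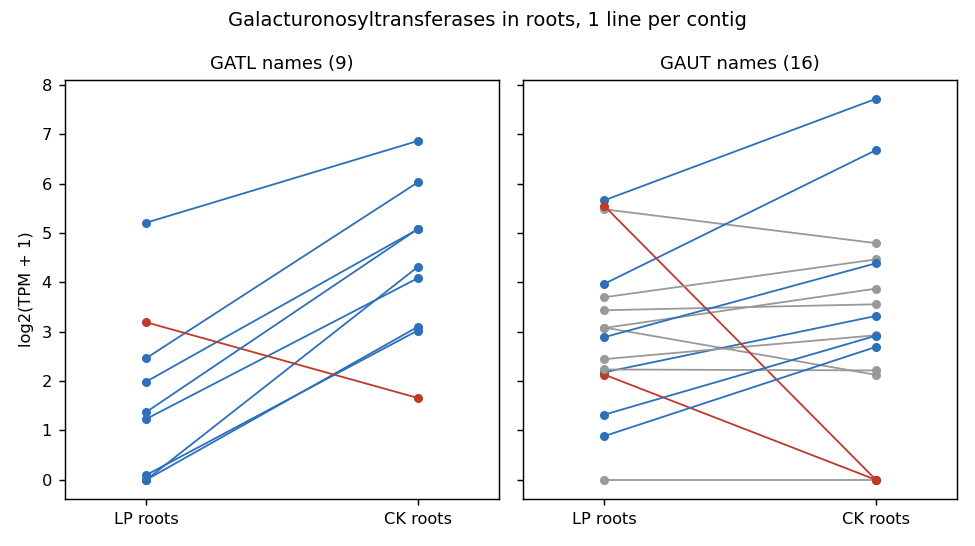
Galacturonosyltransferase contigs in roots as log2(TPM + 1), GATL names on the left and GAUT names on the right, with LP roots left of CK roots and 1 line per contig. Blue lines fell, red lines rose and grey lines did neither; 8 of 9 GATL lines are blue against 6 of 16 GAUT lines.

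Pectate lyases were mostly lower in LP shoots. These enzymes cut homogalacturonan by elimination after its methyl esters have been removed. Of 12 genes 6 fell (50%, beside 18.9% of plant-matched genes) and none rose in shoots, 10 had the lower value in LP, and the median ratio was -1.01. They summed to 149 TPM in LP shoots against 373 TPM in CK shoots. In roots 3 rose (25%, beside 26.5%) and 2 fell (16.7%, beside 26.2%). Of all 83 pectinesterases, polygalacturonases and pectate lyases, 12 rose (14.5%, beside 22.1% of plant-matched genes) and 29 fell (34.9%, beside 18.9%) in shoots. In roots 21 rose (25.3%, beside 26.5%) and 16 fell (19.3%, beside 26.2%). Of the 21, 18 were listed at 0 in CK roots, beside 4395 of the 7122 plant-matched genes that rose. Among the 31 above 0 in both root libraries 3 rose and 13 fell, and the 83 genes summed to 462 TPM in LP roots against 910 TPM in CK roots.

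The long pectate lyase contigs are named by the Arabidopsis locus of their match. At3g53190 (2037 bp) stood at 16.8 TPM in LP shoots and 69.4 TPM in CK shoots, and at 5.15 TPM in LP roots and 6.87 TPM in CK roots. At3g07010 (1972 bp) stood at 20.0 TPM in LP shoots and 71.7 TPM in CK shoots, and at 0.96 TPM in LP roots and 21.3 TPM in CK roots. At1g67750 (1750 bp) stood at 25.1 TPM in LP shoots and 67.4 TPM in CK shoots, and at 2.00 TPM in LP roots and 4.62 TPM in CK roots. CK shoots were the high library for all 3, with shoot ratios of -1.99, -1.79 and -1.39, and At3g07010 fell in roots too. Another contig of the At3g53190 name, 3310 bp long, was the most abundant pectate lyase in roots, at 37.0 TPM in LP and 67.0 TPM in CK, and was not called in either organ. PMR6, whose loss makes Arabidopsis resistant to powdery mildew, rose in roots, at 8.27 TPM in LP against 1.53 TPM in CK, and had 14.7 TPM in LP shoots and 28.9 TPM in CK shoots.

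Polygalacturonases hydrolyse the same backbone. In shoots 11 of 29 fell (37.9%, beside 18.9% of plant-matched genes) and 3 rose (10.3%, beside 22.1%). They summed to 246 TPM in LP shoots against 454 TPM in CK shoots. In roots 11 rose (37.9%, beside 26.5%) and 3 fell (10.3%, beside 26.2%), 12 and 2 after centring. But 10 of the 11 that rose were listed at 0 in CK roots, beside 4395 of the 7122 plant-matched genes that rose. The LP values of the 10 were at most 24.2 TPM. Of the 10 contigs of at least 1000 bp, 4 fell (40%, beside 10.5% of plant-matched genes of that length) and 1 rose (10%, beside 11%) in shoots. In roots 3 of them fell (30%, beside 32.2%) and 1 rose (10%, beside 19.7%). After centring 2 fell (20%, beside 20%), so the long contigs fell in roots at about the plant-matched share. The At1g48100 contigs of 1972 and 1738 bp stood at 15.2 and 7.74 TPM in LP shoots against 40.6 and 25.1 TPM in CK shoots, and neither reached 1 TPM in a root library. PGL3 (2161 bp), whose annotated domain is BURP and not a glycosyl hydrolase, stood at 16.6 TPM in LP shoots and 49.9 TPM in CK shoots, and at 0.47 TPM in LP roots and 1.83 TPM in CK roots. It fell by 1.53 on the log2 scale in shoots.

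QRT3, a polygalacturonase that frees pollen grains from their tetrads in Arabidopsis, was represented by 3 fragments of 484 bp or less. They summed to 0.32 TPM in LP shoots against 74.4 TPM in CK shoots, and all 3 fell. In all, 11 entries shared the name of a grape polygalacturonase, GSVIVT00026920001. The contig of 1688 bp fell in both organs, at 4.43 TPM in LP roots against 21.6 TPM in CK roots and at 13.9 TPM in LP shoots against 45.5 TPM in CK shoots. The contig of 2221 bp rose in roots, at 25.4 TPM in LP against 10.2 TPM in CK, and had 21.8 TPM in LP shoots and 10.8 TPM in CK shoots. PGIP (1125 bp), a protein that blocks fungal polygalacturonases, was root-rich, at 29.9 TPM in LP roots, 48.8 TPM in CK roots, 3.92 TPM in LP shoots and 10.4 TPM in CK shoots, and fell in shoots.

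**Figure D5:**
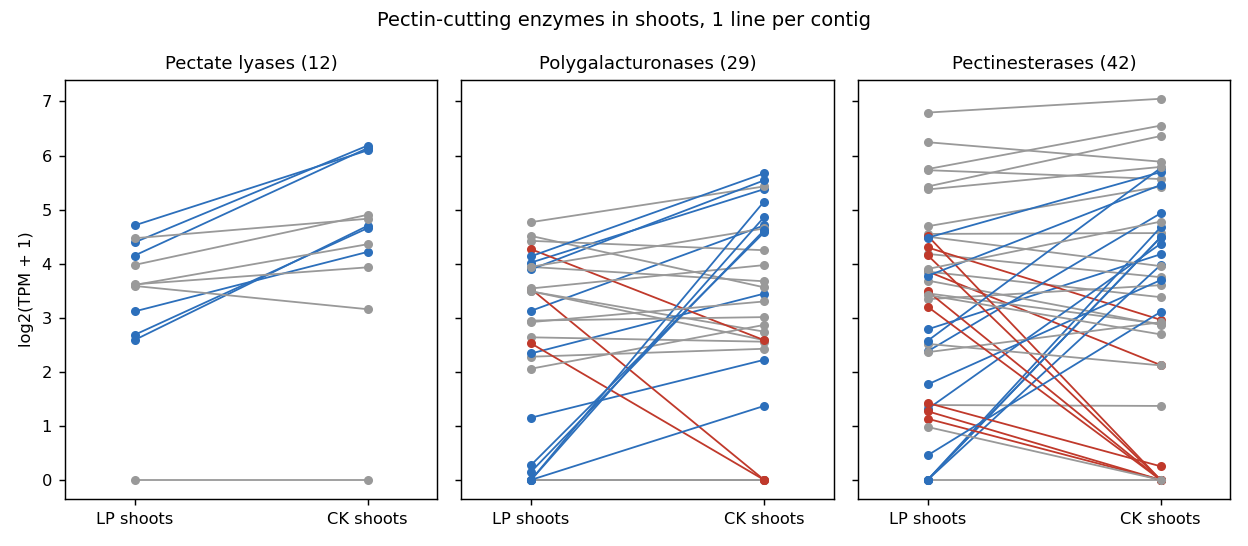
Pectate lyases (left), polygalacturonases (middle) and pectinesterases (right) in shoots as log2(TPM + 1), with LP shoots left of CK shoots and 1 line per contig. Blue lines fell and red lines rose; 6 of 12 pectate lyase lines and 11 of 29 polygalacturonase lines are blue, while pectinesterases have 12 blue and 9 red lines.

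Pectinesterases strip methyl esters from homogalacturonan, and many carry an inhibitor-like propeptide. In shoots 9 of 42 rose (21.4%, beside 22.1% of plant-matched genes) and 12 fell (28.6%, beside 18.9%). In roots 7 rose (16.7%, beside 26.5%) and 11 fell (26.2%, beside 26.2%), 8 and 6 after centring. The 27 genes with "inhibitor" in the name were near balance in shoots, where 8 rose and 7 fell, and of the other 15 genes 1 rose and 5 fell. The class summed to 217 TPM in LP roots against 682 TPM in CK roots, and to 685 TPM in LP shoots against 958 TPM in CK shoots.

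A few long contigs had wide gaps between the root libraries. Pectinesterase 3 (MPE3, 1933 bp) stood at 4.94 TPM in LP roots and 178 TPM in CK roots, and at 24.8 TPM in LP shoots and 42.01 TPM in CK shoots. It was the most abundant wall gene of at least 1000 bp in CK roots, and its root ratio was -4.92, or -4.34 centred. Pectinesterase 1 (PECS-1.1) had a 2007 bp contig at 2.06 TPM in LP roots and 49.2 TPM in CK roots, with 42.01 TPM in LP shoots and 81.2 TPM in CK shoots. Its 970 bp contig stood at 3.56 TPM in LP roots and 58.7 TPM in CK roots, and at 5.89 TPM in LP shoots and 17.04 TPM in CK shoots. Both contigs fell in roots, and the shorter one fell in shoots as well.

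Pectinesterases abundant in shoots were more varied. PME31 (1883 bp) stood at 42.8 TPM in LP roots, 45.4 TPM in CK roots, 52.0 TPM in LP shoots and 46.4 TPM in CK shoots, close to even in both organs. The PPE8B contig of 1889 bp was the most abundant pectinesterase in shoots, at 110 TPM in LP and 132 TPM in CK, and was low in roots, at 1.76 TPM in LP and 0.45 TPM in CK. PME61 (2199 bp) was also shoot-rich, at 52.8 TPM in LP shoots and 92.9 TPM in CK shoots, with 1.25 TPM in LP roots and 5.38 TPM in CK roots, and it fell in roots, by 1.5 on the log2 scale before centring alone. PME68 (1243 bp) had the lowest shoot ratio among long contigs, -3.19, at 4.95 TPM in LP shoots and 53.5 TPM in CK shoots, with 0.02 TPM in LP roots and 0 in CK roots. PME25 had 3 fragments. The one of 223 bp held 133 TPM in CK roots and 24.5 TPM in CK shoots and was listed at 0 in both LP libraries. Those of 371 and 372 bp held 1.48 and 4.2 TPM in LP shoots against 19.6 and 29.5 TPM in CK shoots and were listed at 0 in roots.

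Xylan genes did not move as a block. Among beta-1,4-xylosyltransferases 3 of 8 fell (37.5%, beside 26.2% of plant-matched genes) and 1 rose (12.5%, beside 26.5%) in roots, 3 and 2 after centring. In shoots 3 fell (37.5%, beside 18.9%) and 2 rose (25%, beside 22.1%). IRX9, IRX10 and IRX14 and their paralogs IRX9H and IRX10L extend the xylan backbone in Arabidopsis. IRX9 (1102 bp) fell in both organs, being listed at 0 in LP roots with 3.90 TPM in CK roots and standing at 11.8 TPM in LP shoots and 33.5 TPM in CK shoots. IRX10 (1210 bp) stood at 7.46 TPM in LP roots and 51.1 TPM in CK roots, and at 14.7 TPM in LP shoots and 12.7 TPM in CK shoots. CK roots were the high library for this IRX10 contig. An IRX10 contig of 797 bp was listed at 0 in LP roots, with 5.79 TPM in CK roots. It held 13.0 TPM in LP shoots and 27.3 TPM in CK shoots, its high library. The paralog IRX10L (1720 bp) stood at 34.9 TPM in LP roots, 22.1 TPM in CK roots, 25.0 TPM in LP shoots and 23.5 TPM in CK shoots. Its root ratio of 0.64 passed the limit on centring, at 1.22. IRX14 (2138 bp) rose in roots, to 19.3 TPM in LP against 7.12 TPM in CK, and was level in shoots, at 21.6 and 24.2 TPM. The IRX9H contigs of 1283 and 1259 bp went opposite ways in shoots, at 11.7 and 2.25 TPM in LP against 4.24 and 6.76 TPM in CK.

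Of the 7 genes with glucuronoxylan names 2 rose (28.6%, beside 26.5% of plant-matched genes) and 1 fell (14.3%, beside 26.2%) in roots. In shoots 2 rose (28.6%, beside 22.1%) and 2 fell (28.6%, beside 18.9%). IRX7 (FRA8) and its homolog F8H help make the reducing end of xylan in Arabidopsis. F8H (2904 bp) fell in roots, at 2.07 TPM in LP against 11.7 TPM in CK, and was level in shoots, at 11.7 TPM in LP and 11.4 TPM in CK. IRX7 (1591 bp) rose in roots, at 10.7 TPM in LP against 3.80 TPM in CK, and fell in shoots, at 6.84 TPM against 46.9 TPM. Its other entries, of 233 and 367 bp and from the same component, held 14.6 and 14.4 TPM in LP shoots and were listed at 0 in CK shoots. The IRX7 name therefore had contigs on both sides in shoots. GXM1 (728 bp), which methylates the glucuronic acid side groups, had 3.93 TPM in LP shoots and 5.97 TPM in CK shoots, and a GXM3 fragment of 210 bp was seen in LP roots alone, at 22.1 TPM.

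Roots and shoots shared few calls, among wall genes as among all plant-matched genes. Of 146 wall genes called in either organ, 37 were called in both (25.3%, beside 25.1% of plant-matched genes), 20 with the same call (13.7%, beside 14.8%) and 17 with opposite calls (11.6%, beside 10.2%). Both organs rose for 8 genes and both fell for 12, while 8 rose in roots and fell in shoots and 9 fell in roots and rose in shoots. The 12 genes were 18.8% of those that fell in roots and 25.5% of those that fell in shoots, beside 16.6% and 23% among plant-matched genes. Of the 17 genes with opposite calls, 9 had at least 5 TPM in each organ. Those that fell in roots and rose in shoots were CSLG3, CSLE6 and 2 CSLB4 contigs, and those that rose in roots and fell in shoots were IRX7, GAUT4, GATL5, PME51 and the pectate lyase At4g13710.

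Most wall genes had more RNA in shoots than in roots. CK roots were called higher than CK shoots for 27 genes (13.9%, beside 16.9% of plant-matched genes) and lower for 101 (52.1%, beside 44.9%). Of the 101, 60 were listed at 0 in CK roots, as were 7301 of the 12037 plant-matched genes called lower. LP roots were called higher than LP shoots for 18 genes (9.28%, beside 16.1%) and lower for 121 (62.4%, beside 51.5%). Scaling to the median of plant-matched genes made these 28 (14.4%, beside 23.1%) and 98 (50.5%, beside 39.3%). Genes with more RNA in CK roots than in CK shoots included CSLD2 (999 bp; log2 ratio 3.92), GATL10 (2.44), PGIP (2.13), MPE3 (2.06), IRX10 (1210 bp; 1.93), GAUT12 (1761 bp; 1.46) and COBL7 (1.39). In LP the same ratio of roots over shoots was 1.11 for CSLD2, -0.84 for GATL10, 2.65 for PGIP, -2.12 for MPE3, -0.89 for IRX10, -0.68 for GAUT12 and -1.53 for COBL7. Of these 7, CSLD2 and PGIP stayed above shoots in LP. These comparisons share libraries with those of LP and CK, so they are not separate evidence.

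Companion genes were counted from lists of protein names, and a name does not show which wall polymer a gene acts on. The plant-matched shares beside them were 26.5% that rose and 26.2% that fell in roots, and 22.1% and 18.9% in shoots. After centring the root shares were 31.4% and 19.1%. Among 29 cellulose companions (KORRIGAN endoglucanase, chitinase-like proteins, sucrose synthases and fasciclin-like arabinogalactan proteins) none rose and 15 fell (51.7%) in roots, 13 after centring, with a median of -1.07, and 1 rose and 12 fell (41.4%) in shoots, with a median of -0.78. The list shares 9 fasciclin-like genes with the xylem markers, which make up 6 of the 12 that fell in shoots and 1 of the 15 in roots. KORRIGAN (KOR, 2366 bp), a membrane cellulase of the synthase complex, fell in roots before centring alone (-1.07, and -0.49 centred) and stood at 83.2 TPM in LP roots and 176 TPM in CK roots, and at 144 TPM in LP shoots and 213 TPM in CK shoots. Among 26 nucleotide sugar enzymes, which supply the building blocks of pectin and xylan, 2 rose and 12 fell (46.2%) in roots, 4 and 7 after centring, and none rose and 5 fell (19.2%) in shoots. GAE1 (1923 bp) is a UDP-glucuronate 4-epimerase, which makes the UDP-galacturonic acid used by GAUT proteins. It stood at 17.7 TPM in LP roots and 205 TPM in CK roots, and at 128 TPM in LP shoots and 94.1 TPM in CK shoots. Other epimerases of this name differed in roots. GAE2 fell, at 0.23 TPM in LP against 14.4 TPM in CK, as did GAE3 (1830 bp), at 4.9 against 112 TPM. GAE5 rose, at 12.8 TPM in LP roots against 0.43 TPM in CK roots. GAE3 (1405 bp) and the GAE6 contigs of 1116 and 1136 bp were not called in roots. A 214 bp GAE1 fragment was listed at 0 in LP and CK roots. The 62 genes listed as xylan companions were mostly trichome birefringence-like proteins, with beta-D-xylosidases, xylan glucuronosyltransferases and IRX15 names. Of them 9 rose (14.5%) and 19 fell (30.6%) in roots, 11 and 14 after centring, and 7 rose (11.3%) and 16 fell (25.8%) in shoots. IRX15, needed for xylan of normal length, stood at 0.05 TPM in LP roots and 95.3 TPM in CK roots. The 84 genes listed as pectin companions were beta-galactosidases, probable methyltransferases with PMT names, pectin acetylesterases and rhamnogalacturonate lyases. Of them 21 rose (25%) and 31 fell (36.9%) in roots, 22 and 19 after centring, and 16 rose (19%) and 21 fell (25%) in shoots.

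The remaining marker counts were as follows. Among 27 green tissue genes 10 rose (37%) and 6 fell (22.2%) in roots, 13 and 3 after centring, and 2 rose and 4 fell in shoots. Among 12 root markers 4 rose (33.3%) and 4 fell (33.3%) in roots, 4 and 2 after centring, with sums of 112 TPM in LP against 235 TPM in CK, and 2 rose and 4 fell in shoots. In roots 1 of the 5 dividing cell genes rose and 2 fell, 1 and 1 after centring, with sums of 9.78 TPM in LP against 20.8 TPM in CK. The part of these cell types in the wall gene ratios was not tested.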

How the data were processed

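The authors deposited TPM per assembled gene for 4 libraries, with a length in bp and protein annotations, per the file headers. The submitters' processing notes name cutadapt 1.9 and FastQC. How the transcripts were assembled and quantified is not given in the sources used here. Libraries were made from poly(A) RNA and read from both ends, per the labels' protocols. No genome or transcript sequence was used. Libraries were grouped by the labelled organ and medium. LP was compared with CK in roots and in shoots, and roots with shoots in each medium. Ratios are log2 with a pseudocount of 1 TPM, which understates the change of low genes, and a call needed at least 1 TPM and a log2 ratio of 1 in size. No test was possible.

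TPM keep no depth. By the smallest step between values of equal length, 1 fragment of a 400 bp contig was worth 0.09 TPM in LP roots, 0.17 TPM in CK roots and LP shoots, and 0.21 TPM in CK shoots. A 10 TPM gene of that length had a counting error of 9.49% in LP roots, 13% in CK roots and LP shoots, and 14.5% in CK shoots. This covers counting error only.

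Wall genes, classes and lists were chosen by protein name, with earlier results of these data known. Splits of CSL by letter, of galacturonosyltransferases into GAUT and GATL, of pectinesterases by the word inhibitor, and QRT3 were made after values were seen. The rule for named genes took every CESA, the 4 most abundant genes of each other class, the 6 highest and 6 lowest ratios per organ at 5 TPM or more, and genes called in opposite directions. It gave 79 genes, and those of lower mean TPM are given by counts; some subfamily members were named after their values were seen. Alternatives were a pseudocount of 0.1, no minimum, a minimum of 5 TPM, median scaling, a log2 threshold of 2, contigs of at least 400 bp and sums over a protein name. Contigs of at least 1000 bp, genes above 0 in both libraries and Betula-matched genes were added after the data were seen. Python 3.11.15, pandas 2.3.3, numpy 2.4.6 and matplotlib 3.10.9 were used, and the calling step was tested on simulated data.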

Additional observations from a re-analysis of the deposited data

Results flagged for a closer look

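In 9 wall genes with at least 5 TPM in each organ the LP library moved one way in roots and the opposite way in shoots. The difference was not tested, since each group is 1 library. Each is given as the root log2 ratio minus the shoot log2 ratio, LP over CK. All 9 kept both calls after centring on the median of plant-matched genes.

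Below 0, so lower in LP roots and higher in LP shoots, were 4 cellulose synthase-like contigs. The CSLB4 contig of 312 bp differed by -6.38, with 0.16 TPM in LP roots, 38.1 TPM in CK roots, 5.82 TPM in LP shoots and 1.76 TPM in CK shoots. The CSLB4 contig of 566 bp differed by -5.89, with 4.98 TPM in LP roots, 70.4 TPM in CK roots, 23.5 TPM in LP shoots and 3.94 TPM in CK shoots. CSLG3 (2355 bp) differed by -4.39. CSLE6 (714 bp) differed by -4.11, with 8.53 TPM in LP roots, 38.5 TPM in CK roots, 21.0 TPM in LP shoots and 4.27 TPM in CK shoots.

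Above 0 were 5 contigs. GAUT4 (773 bp) differed by 6.59 and was listed at 0 in CK roots. At4g13710 (296 bp), a pectate lyase, differed by 5.35, with 9.38 TPM in LP roots, 0 in CK roots, 5.42 TPM in LP shoots and 24.2 TPM in CK shoots. PME51 (890 bp) differed by 4.67, with 10.0 TPM in LP roots, 0 in CK roots, 21.3 TPM in LP shoots and 50.7 TPM in CK shoots. IRX7 (1591 bp) differed by 3.90, and GATL5 (596 bp) by 2.73. The GAUT4, At4g13710 and PME51 differences depend on the pseudocount, because CK roots were listed at 0.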

How the results depend on the processing

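Counts of wall genes called moved by more than 1.5 times under some settings. For LP roots against CK roots, 36 rose as reported, against 21 at a log2 threshold of 2, 17 with TPM summed over a protein name, 8 among contigs of at least 1000 bp and 7 among genes above 0 in both libraries; 64 fell, against 42 summed and 39 of at least 1000 bp. For LP shoots against CK shoots, 36 rose, against 19 at the threshold of 2, 21 among contigs of at least 400 bp, 9 summed, 7 of at least 1000 bp and 22 above 0 in both; 47 fell, against 21, 31, 22 and 17 under the first 4 of these settings. For CK roots against CK shoots, 27 were higher, against 15 at the threshold of 2, 15 summed and 12 of at least 1000 bp, and 101 lower, against 47 summed, 39 of at least 1000 bp and 41 above 0 in both. For LP roots against LP shoots, 18 were higher, against 28 with median scaling, 10 of at least 400 bp, 8 summed, 2 of at least 1000 bp and 10 above 0 in both, and 121 lower, against 61 summed, 56 of at least 1000 bp and 79 above 0 in both. The length, summing and above-0 settings also leave fewer genes to count. The other 51 counts of members stayed within 1.5 times, among them those with a pseudocount of 0.1, no minimum, a minimum of 5 TPM and Betula-matched genes added. Of the counts per class, 278 stayed within 1.5 times and 118 did not. Of the ratios of named genes, 1196 kept their call, 70 crossed the calling limit, and 9 called ratios reversed, all with TPM summed over a protein name. In roots the summed ratio was -4.43 for CESA8 (554 bp), -1.58 for CESA8 (629 bp), -0.58 for CSI3 (1299 bp), -1.73 for CSLB4 (203 bp), -1.10 for GAUT4 (773 bp), -0.29 for GSVIVT00026920001 (2221 bp) and -0.38 for PME51 (890 bp); in shoots it was -0.59 for CESA8 (629 bp) and -1.16 for PME51 (284 bp). No paired analysis was possible because each group is 1 library, and no replicate could be left out. Contigs under 400 bp rest on few fragments where their TPM is low. By the smallest step, 1 fragment of a 230 bp contig was worth 0.37 TPM in LP roots and 0.63 TPM in CK roots. In LP shoots it was worth 0.6 TPM and in CK shoots 0.83 TPM. A 0 means not detected at this depth, not absent.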
